A study of Homo sapiens with 23 samples.

Results

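TNF and IL-17 were given to lung fibroblasts of 2 culture passages, and the change they caused was compared between the passages. The comparison used the arrays without IL-13: cells given TNF and IL-17 (4 arrays of Pass6 and 3 of Pass8, of which Pre_only is 1) against untreated Control cells (2 arrays of each passage), first within each passage and then Pass8 minus Pass6. These were 11 of the 23 arrays of the series, and all 12994 detected genes were tested. The cells were CCL-75, which is the catalogue number of WI-38, a line of diploid fibroblasts from fetal lung with a finite life span in culture. Control cells had no cytokine, no antibody and no stimulation. Pre_only cells had TNF and IL-17 for 72 hours, and Pre_Ab_only cells also had a neutralising antibody to the IL-13 receptor chain IL-13Ra2 for the last 1 hour. Both kinds are called primed here, since the labels list no IL-13 for either, and no cytokine dose is given in the labels. The other 12 arrays of the series carried the same treatments followed by 20 hours of IL-13, without TNF and IL-17 (IL13) or after them (Pre_IL13, Pre_Ab_IL13). Each passage came as experiments A and B. The labels call A and B technical replicates and the series design calls them independent experiments, so the p-values below measure the spread between arrays, which may be technical. Each passage is 1 culture passage hybridised on a beadchip of its own, which means that an effect of the passage and one of the beadchip cannot be told apart.

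TNF and IL-17 are inflammatory cytokines that act together on fibroblasts. TNF drives transcription through NF-kB, and IL-17 stabilises short-lived messenger RNAs and raises the co-activator encoded by NFKBIZ, so that genes for neutrophil chemokines and IL-6 respond to both. Fibroblasts exposed to TNF for days also make interferon-beta, whose receptor switches on the interferon-stimulated genes. With continued passage, diploid lung fibroblasts drift towards replicative senescence, and their matrix, contractile and secretory genes are known to change.

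Between 18310 and 20162 probes were detected on each of the 11 arrays, and the arrays had median raw intensities of 94.0 to 104. All 14 fibroblast markers with a probe were detected on all 11 arrays, and their mean level was 10.72 to 10.74 in Control and 11.07 to 11.18 in primed cells of Pass6, and 10.50 to 10.53 and 10.83 to 10.84 in those of Pass8. Of the other lists, 6 of 7 smooth muscle, 3 of 5 leukocyte, 1 of 4 epithelial and 2 of 3 endothelial markers were detected on all 11. Those detected on all 11 were CD14, CD68 and LYZ, MUC1, and VWF and TEK, while EPCAM, KRT8, SCGB1A1, CSF1R and CD163 were detected on 1 or 2 arrays each and PECAM1 on none. The mean level of the leukocyte list was 6.51 to 6.57 in Control and 6.85 to 6.98 in primed cells of Pass6, and 6.54 to 6.66 and 6.93 to 7.04 in those of Pass8. The mean level of the smooth muscle list was 9.93 to 10.00 in Control cells of Pass6 and 9.43 on both Control arrays of Pass8, against 8.64 to 8.81 and 8.44 to 8.56 in primed cells, so it moved with both passage and priming. Its part in the results was not tested. In RNA from whole cultures, fewer cells of a kind and less RNA per cell cannot be told apart.

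The response to TNF and IL-17 was broadly shared between the passages. In Pass6, 1705 genes (13.1% of those tested) rose and 1728 (13.3%) fell. In Pass8, 1152 (8.87%) rose and 1211 (9.32%) fell, each at an adjusted p under 0.05 in limma. Of the 1734 genes called in both passages, 1724 moved the same way and 10 moved opposite ways. Across all genes, the effects in the 2 passages had a Pearson correlation of 0.82 over 12994 genes, which are not independent replicates and share the normalisation. The effects were smaller in Pass8: their SD over all genes was 0.53 in Pass6 and 0.45 in Pass8 (log2), and 1063 of the 1724 genes that moved the same way (61.7%) moved less in Pass8. That held for 528 of the 853 that rose in both and for 535 of the 871 that fell in both.

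The difference between the 2 effects passed the test for 351 genes (2.7%), of which 185 (1.42%) had a higher effect in Pass8 and 166 (1.28%) a lower one. At least a 2-fold difference was fitted for 57 of the first and 65 of the second, and the median over all genes was -0.01. With 2 Control arrays in each passage, this count leans on every one of them: it was 199 without Control Pass6-A, 202 without Pass6-B, 190 without Pass8-A and 196 without Pass8-B, where the array that is left is taken to vary like the other groups. With arrays scaled to a common median in place of quantile normalisation it was 123, of which 86 had the higher effect in Pass8. Among the 166 genes with a lower effect, the fitted effect was smaller in Pass8 than in Pass6 for 107, opposite in sign for 52 and larger for 7. Among the 185 with a higher effect, it was smaller in Pass8 for 101, opposite for 55 and larger for 29.

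**Figure D1:**
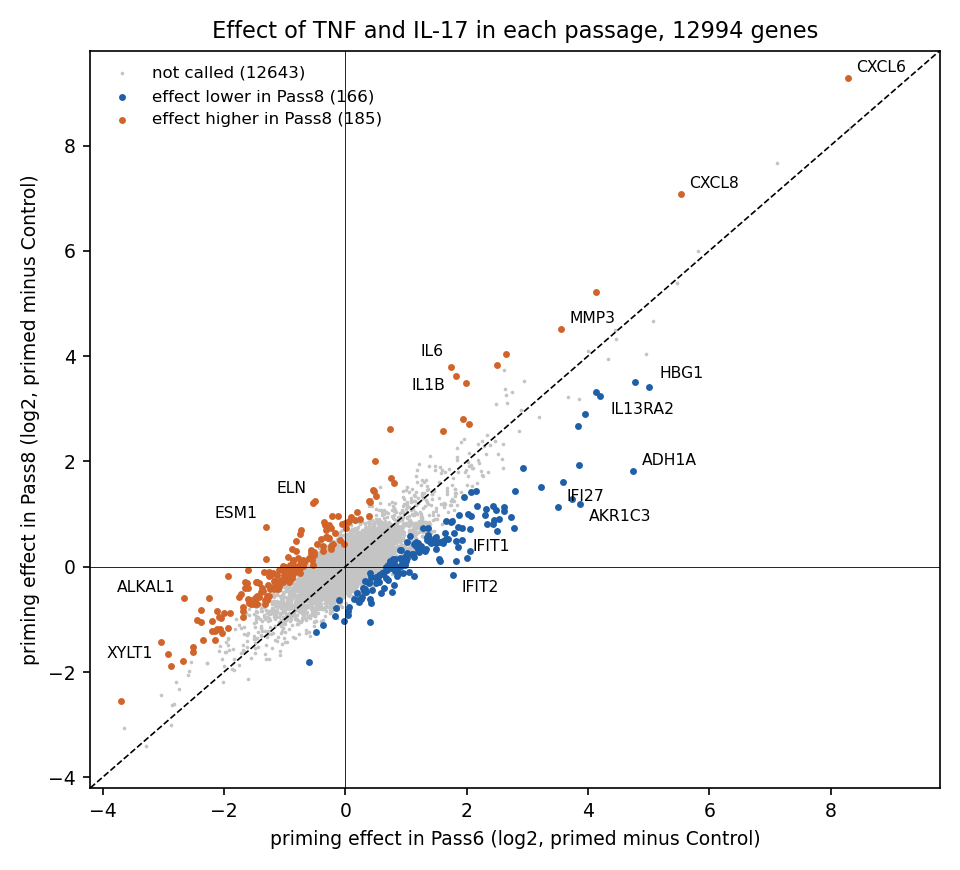
Effect of TNF and IL-17 in Pass6 (x axis) and Pass8 (y axis) as log2 differences between primed and Control arrays, 1 point per gene, with equal effects on the dashed line. The 166 genes with a lower effect in Pass8 lie below the line and include ADH1A (4.75 and 1.82), and the 185 with a higher effect lie above it and include IL6 (1.75 and 3.80).

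The difference of effects is, by arithmetic, the passage difference among primed arrays minus the passage difference among Control arrays. Pass8 and Pass6 differed for 892 genes (6.86%) among Control arrays and for 1094 genes (8.42%) among primed arrays. Of the 185 genes with a higher effect in Pass8, 124 differed between passages only among Control arrays by these calls, 28 only among primed arrays, 25 in both states and 8 in neither. Their median level in Control cells was 0.80 lower in Pass8 (log2 difference -0.80) and their median difference in primed cells was 0.12. Of the 166 genes with a lower effect, 68 differed only among Control arrays, 58 only among primed arrays, 28 in both and 12 in neither, and the medians were 0.54 in Control and -0.36 in primed cells. A call in 1 state and not in the other does not show that the states differ, which is what the 351 calls test.

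**Figure D2:**
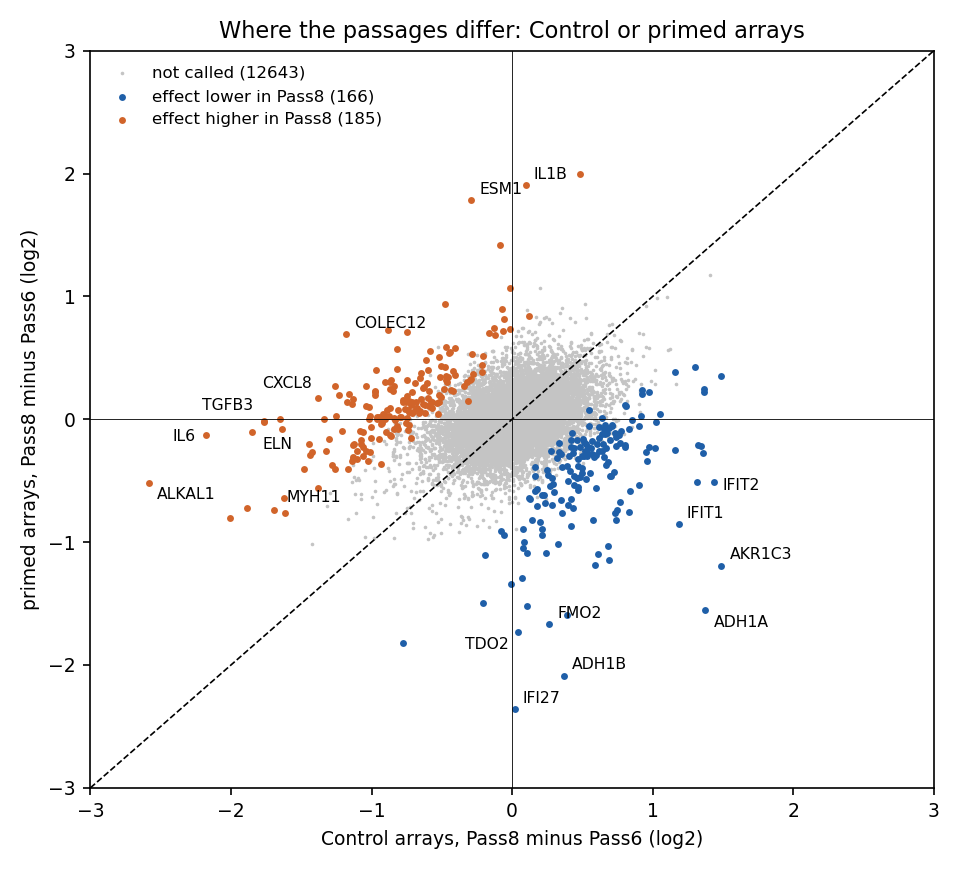
Passage difference among Control arrays (x axis) and among primed arrays (y axis), Pass8 minus Pass6 in log2, 1 point per gene. TGFB3 (-1.77 and -0.02) and IL6 (-2.18 and -0.13) lie far from 0 along the Control axis, IFI27 (0.02 and -2.36) and IL1B (0.10 and 1.91) along the primed axis, and ADH1A (1.37 and -1.55) along both.

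The 3 most negative differences were those of ADH1A, AKR1C3 and ADH1B, enzymes of alcohol, retinoid and steroid metabolism. ADH1A, a class I alcohol dehydrogenase, had a level (log2 normalised intensity) of 6.93 and 6.45 on the Control arrays of Pass6 and of 11.70, 11.51, 11.30 and 11.25 on its primed arrays. In Pass8 its Control arrays stood at 8.06 and 8.07 and its primed arrays at 9.71, 9.96 and 9.98. Primed arrays were above Control arrays in both passages, and those of Pass8 lay between the Control and the primed arrays of Pass6. ADH1A rose 26.9-fold in Pass6 and 3.53-fold in Pass8, a difference of -2.93 ± 0.20 (log2, SE, n = 4 and 2 arrays in Pass6 and 3 and 2 in Pass8, adjusted p = 1.08e-08). It was the most negative of all 12994 differences. With Pre_only arrays alone, of which Pass8 has 1, it was -3.26, and with Pre_Ab_only arrays alone -2.68, with the same Control arrays in both.

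ADH1B, the neighbouring alcohol dehydrogenase gene, was not detected on either Control array of Pass6. Its levels there were 4.27 and 4.39, and its primed arrays of Pass6 stood at 8.35, 8.03, 7.87 and 8.04, so that it rose at least 10.7-fold. In Pass8 its levels were 4.76 and 4.64 in Control and 5.59, 6.01 and 6.35 in primed cells, a 2.44-fold rise. The passage difference was 0.37 in Control cells (adjusted p = 0.30) and -2.09 in primed cells (adjusted p = 1.55e-08), where no array of Pass8 reached the lowest of Pass6. FMO2, a flavin-containing monooxygenase of the lung, followed the same course with 5.52 and 5.78, then 9.42, 9.46, 9.68 and 9.46, in Pass6 and 5.91 and 5.91, then 7.82, 7.78 and 7.91, in Pass8. It rose 14.5-fold in Pass6 and 3.79-fold in Pass8 (difference -1.93 ± 0.18, adjusted p = 1.64e-06).

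AKR1C3, an aldo-keto reductase that reduces steroids and prostaglandins, stood at 5.69 and 5.66 in Control and 9.62, 9.64, 9.43 and 9.49 in primed cells of Pass6. In Pass8 it stood at 7.07 and 7.25 and then at 8.21, 8.42 and 8.43. The 4 groups did not overlap: Control was higher and primed lower in Pass8. The rise was 14.6-fold in Pass6 and 2.28-fold in Pass8 (difference -2.68 ± 0.17, adjusted p = 5.17e-09). AKR1C4 (-1.98 ± 0.22) and AKR1C2 (-1.84 ± 0.18) of the same gene cluster also passed, and AKR1C2 rose by 2.01 in Pass6 while its effect in Pass8 was 0.17 (adjusted p = 0.45). The AKR1C genes are near-identical copies, so probes may take signal from one another and their separate values are uncertain. Of 14 tested genes of the list of aldo-keto reductases and steroid metabolism, 5 had a lower effect in Pass8 (1.28% of all genes) and 1, HSD17B6, a higher one (1.42% of all genes), and the list's median difference was -0.25. Of 22 alcohol, aldehyde and retinoid dehydrogenases, 2 were lower (ADH1A, ADH1B) and 2 higher (ALDH1A3, ALDH1B1), with a median of -0.22. NQO1, a quinone reductase and a standard target of the oxidative stress factor NRF2, rose by 0.91 ± 0.09 in Pass6 and had an effect of 0.02 ± 0.10 in Pass8 (difference -0.89 ± 0.14, adjusted p = 0.000506). It was the only one of the 19 tested genes of the list of NRF2 targets and glutathione that passed.

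**Figure D3:**
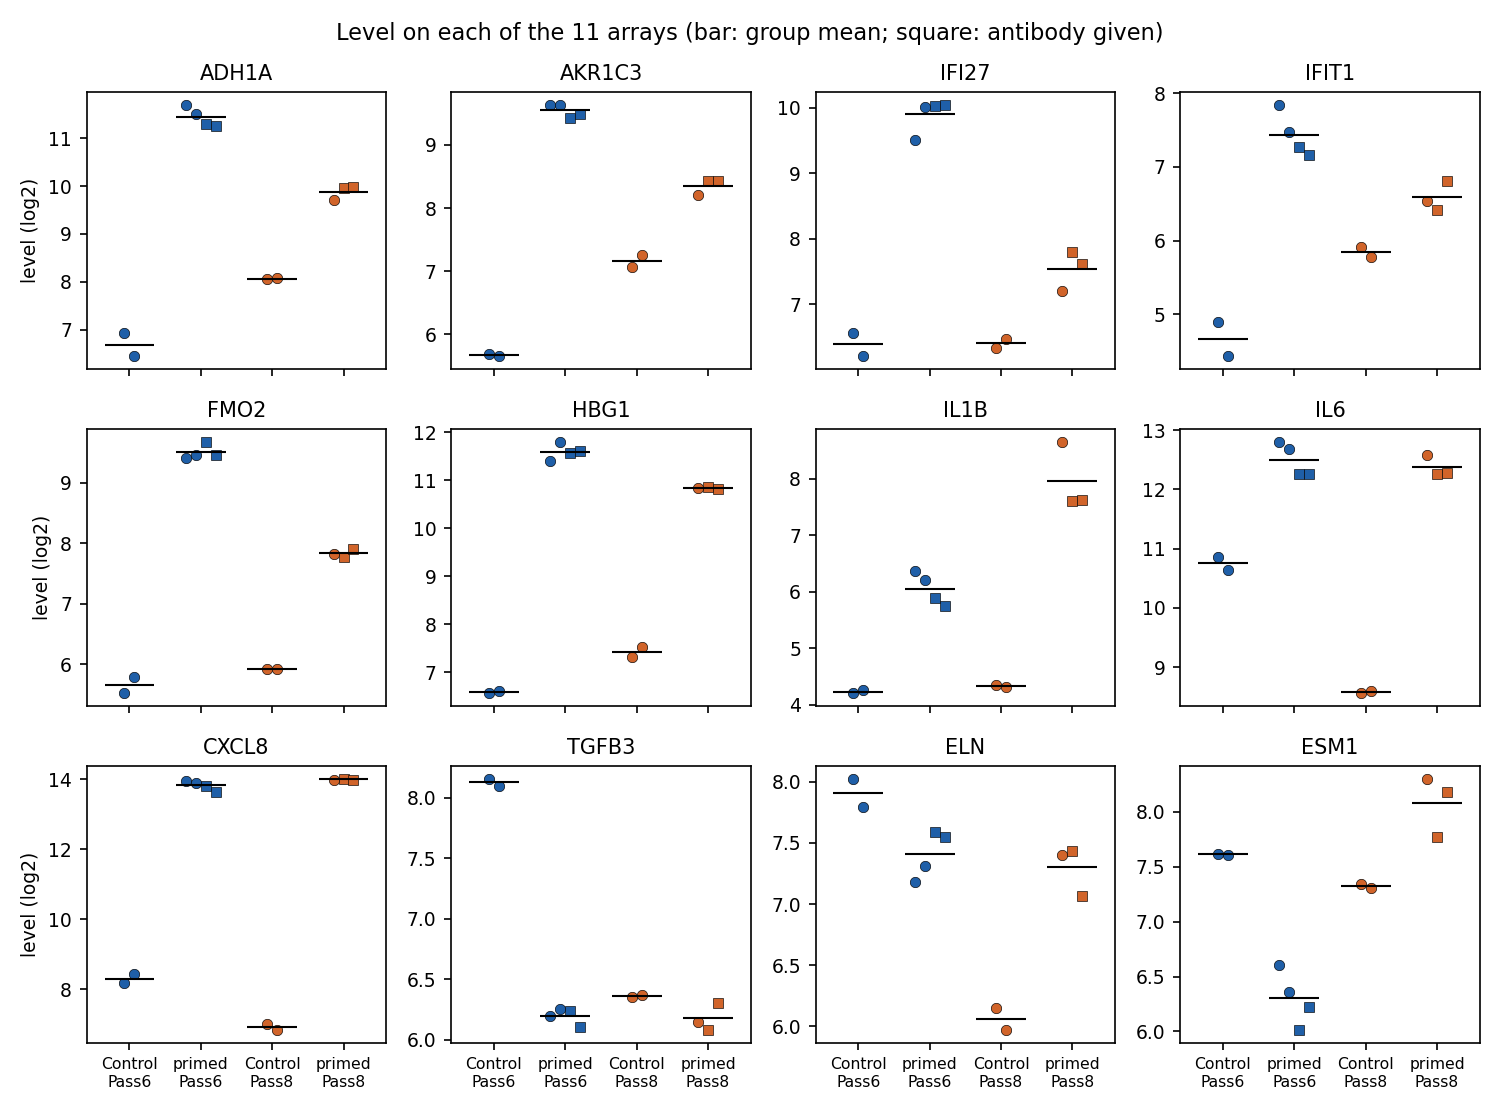
Level (log2 normalised intensity) of 12 genes on each of the 11 arrays, by group: Control and primed arrays of Pass6 (blue) and of Pass8 (orange), with the group mean as a bar and arrays with antibody as squares. For AKR1C3 the groups separate in both states, for IFI27 only the primed arrays of the passages separate, and for TGFB3 only the Control arrays.

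Of the gene lists described, that of interferon-stimulated genes held the most genes with a lower effect in Pass8. Of 40 tested, 17 had a lower effect and 1, GBP1, a higher one, against 1.28% and 1.42% of all genes, and the list's median difference was -0.48. This list was chosen with earlier results of these data known, so its count is a description. All 17 rose in Pass6 and 14 of them rose in Pass8, with median effects of 2.30 and 0.74. Among Control arrays, 8 of the 17 were higher in Pass8 and 0 lower, and among primed arrays 13 were lower. The 17 were picked for their difference on the same arrays, so these effects and calls follow in part from that choice. Of all 40 tested, 8 were higher in Pass8 and 1 lower among Control arrays, against 444 and 448 of all 12994 genes. Among primed arrays 2 of the 40 were higher and 16 lower, against 542 and 552. The count of 17 was 12 without Control Pass6-B, the lowest for any single array left out, and 9 after median scaling.

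The promoters of 4 of these genes are shown, picked from those that hold a motif found in most, but not all, genes of the list. The core of the interferon-stimulated response element, to which the factor ISGF3 binds, was searched as GAAA followed, after any 2 bases, by GAAA on both strands, with overlapping matches counted, from 250 bases before to 50 after the start of each gene. Sequences are from RefSeq on GRCh38.p14, 5′ to 3′ on the strand of the gene. IFI27 lies on the plus strand (chr14:94110486-94110785), as do IFIT1 (chr10:89392373-89392672), IFIT3 (chr10:89327747-89328046) and MX1 (chr21:41420308-41420607). Capitals mark the motif or its reverse complement.
IFI27: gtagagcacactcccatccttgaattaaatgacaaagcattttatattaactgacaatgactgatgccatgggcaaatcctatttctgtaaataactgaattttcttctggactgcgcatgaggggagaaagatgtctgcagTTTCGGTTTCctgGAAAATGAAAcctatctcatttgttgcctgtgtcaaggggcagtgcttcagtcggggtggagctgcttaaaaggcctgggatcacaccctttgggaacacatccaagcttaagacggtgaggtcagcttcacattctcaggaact
IFIT1: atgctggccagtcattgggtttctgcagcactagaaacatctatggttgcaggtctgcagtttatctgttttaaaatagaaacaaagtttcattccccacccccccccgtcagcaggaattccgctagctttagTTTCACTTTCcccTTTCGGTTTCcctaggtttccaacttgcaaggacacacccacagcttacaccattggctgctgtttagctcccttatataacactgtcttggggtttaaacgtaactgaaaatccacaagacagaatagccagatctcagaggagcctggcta
IFIT3: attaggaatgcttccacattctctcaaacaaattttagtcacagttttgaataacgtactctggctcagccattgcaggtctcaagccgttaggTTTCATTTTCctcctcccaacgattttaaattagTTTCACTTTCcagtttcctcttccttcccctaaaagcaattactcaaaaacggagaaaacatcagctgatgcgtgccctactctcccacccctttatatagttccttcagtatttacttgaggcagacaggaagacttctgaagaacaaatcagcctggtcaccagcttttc
MX1: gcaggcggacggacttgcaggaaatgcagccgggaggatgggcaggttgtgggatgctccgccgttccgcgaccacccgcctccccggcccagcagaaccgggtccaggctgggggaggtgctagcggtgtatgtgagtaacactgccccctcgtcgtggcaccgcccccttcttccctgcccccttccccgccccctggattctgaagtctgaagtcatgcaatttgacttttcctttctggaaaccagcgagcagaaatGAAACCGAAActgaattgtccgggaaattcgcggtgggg
The motif starts 108 and 95 bases before the start site in IFI27, 116 and 103 before it in IFIT1 and 156 and 122 before it in IFIT3, and 12 bases after it in MX1. It was found in 996 of the 27305 promoters of the table (3.65%) and in 309 of the 10370 of genes tested (2.98%). Of the 32 interferon-stimulated genes that had a promoter in the table, 24 held it (75%). Among those with a lower effect in Pass8 it was in 12 of 15 (80%), all but XAF1, HERC6 and PARP9. Among the other interferon-stimulated genes it was in 12 of 17 (70.6%). Over all called genes it was in 16 of 124 with a lower effect (12.9%) and in 2 of 145 with a higher effect (1.38%). The 16 include the 12 interferon-stimulated genes just given. The core of the antioxidant response element, TGACNNNGC, was searched in the same way and lay in 13.6% of all promoters and 15.2% of those of the genes tested. It lay in 16.9% for genes with a lower effect, 12.4% for those with a higher effect, 31.2% for interferon-stimulated genes and 1 of 10 for the aldo-keto reductase list. A match describes the letters and is not a binding site shown here.

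IFI27, a small mitochondrial protein gene that is among the most sensitive to type I interferon, stood at 6.57 and 6.21 in Control cells of Pass6 and at 6.34 and 6.48 in those of Pass8. After priming it stood at 9.51, 10.02, 10.03 and 10.05 in Pass6 and at 7.20, 7.80 and 7.61 in Pass8. Control arrays of the passages overlapped, and the primed arrays lay more than 1 log2 unit apart. It rose 11.4-fold in Pass6 and 2.19-fold in Pass8 (difference -2.38 ± 0.24, adjusted p = 2.65e-06). IFIT1, which encodes an RNA-binding antiviral protein, stood at 4.89 and 4.43 in Control, where 1 of 2 arrays detected it, and at 7.85, 7.47, 7.27 and 7.17 in primed cells of Pass6. In Pass8 it stood at 5.91 and 5.78 and then at 6.54, 6.41 and 6.80, higher than Pass6 before priming and lower after it. The difference was -2.04 ± 0.26 (adjusted p = 3.62e-05). A second, dimmer IFIT1 probe gave 0.10, opposite in sign. Its mean level of 4.47 is below the lowest detected signals of the arrays (4.58 to 4.67), so whether it measures the gene here is not known.

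IFIT2 and IFIT3, neighbours of IFIT1 with related antiviral roles, had differences of -1.95 ± 0.22 and -1.83 ± 0.23. IFIT2 rose by 1.78 in Pass6 and had an effect of -0.17 in Pass8 (adjusted p = 0.54), where its Control arrays at 7.91 and 7.62 overlapped its primed arrays at 7.64, 7.52 and 7.63. In Pass6 the Control arrays stood at 6.27 and 6.38 and the primed arrays at 8.19, 8.45, 7.93 and 7.85. Among the others, chosen here after their values were seen, the antiviral GTPase MX1 differed by -1.56 ± 0.20 and the ubiquitin-like ISG15 by -0.75 ± 0.19. The effect on CXCL10, a T cell chemokine that NF-kB also drives, was 2.94 in Pass6 and 3.52 in Pass8 (difference 0.57 ± 0.27, adjusted p = 0.36). Both genes that passed among 23 genes of interferon signalling and nucleic acid sensing, against 1.28% of all genes with a lower effect, encode RNA sensors. They were IFIH1 (-1.03 ± 0.23, adjusted p = 0.0142) and DHX58 (-0.89 ± 0.21, adjusted p = 0.023). DHX58 was detected on 1 of 2 Control arrays of Pass6 (4.46 and 4.72), and its primed means were 5.60 in Pass6 and 5.63 in Pass8. The DHX58 call was lost without background correction and in the authors' normalised table. Both calls were lost without Control Pass6-A (-0.82 and -0.76) and without Control Pass8-A (-0.95 for each), and that of DHX58 also without Control Pass8-B (-0.83) or Pre_only Pass8-B (-0.86). Of 18 genes of class I antigen presentation, 14 rose in each passage and 0 passed for the difference of effects after adjustment in limma, with a median difference of -0.30. The difference was negative for 16 of the 18, against 6719 of all 12994 genes. Among primed arrays 6 were lower in Pass8 and 0 higher, against 552 and 542 of all genes.

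**Figure D4:**
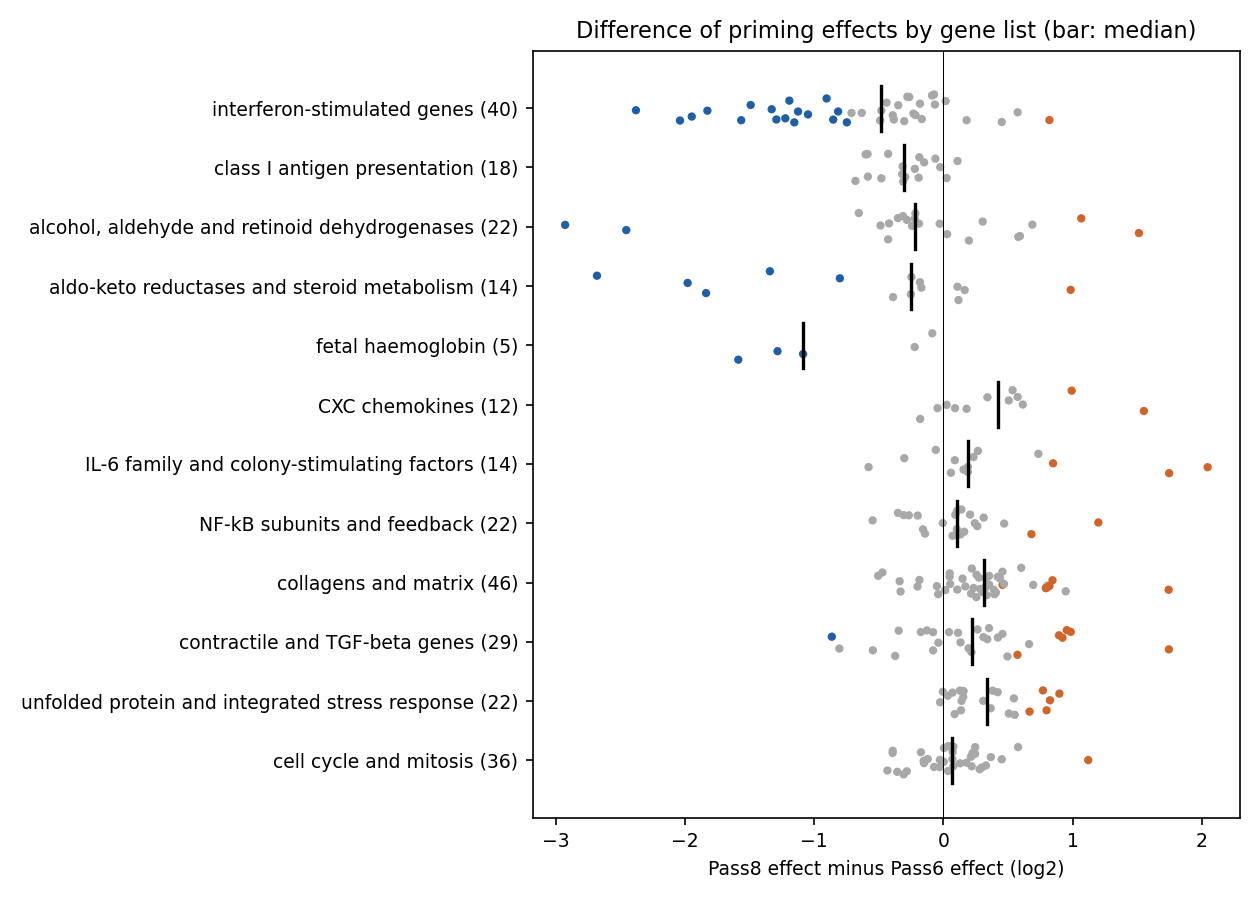
Difference of priming effects, Pass8 minus Pass6 in log2 (x axis), for the tested members of 12 gene lists (number tested in brackets), with the median as a bar. Blue points had a lower and orange points a higher effect in Pass8 after adjustment. Of 40 interferon-stimulated genes, 17 are blue and 1 orange, and of 46 collagens and matrix genes 0 are blue and 6 orange.

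Among secreted signals of inflammation, effects differed in both directions. IL6, which encodes the acute-phase cytokine IL-6, stood at 10.86 and 10.64 in Control cells of Pass6 and at 8.56 and 8.59 in those of Pass8. Its primed arrays reached 12.81, 12.68, 12.26 and 12.26 in Pass6 and 12.58, 12.26 and 12.28 in Pass8. The Control arrays of the passages were more than 2 log2 units apart and the primed arrays overlapped, so IL6 rose 3.37-fold in Pass6 and 13.9-fold in Pass8 (difference 2.05 ± 0.20, adjusted p = 2.37e-06). IL11, a fibrosis-associated cytokine of the same family, stood at 7.28 and 7.23 and then at 6.76, 6.95, 6.27 and 6.91 in Pass6, and at 5.71 and 5.27 and then at 7.0, 6.74 and 6.39 in Pass8. It fell by 0.53 in Pass6 and rose by 1.22 in Pass8 (difference 1.75 ± 0.27, adjusted p = 0.000512), which left primed arrays of both passages at overlapping levels. With LIF, 3 of 14 genes of the IL-6 family and colony-stimulating factors had a higher effect in Pass8, against 1.42% of all genes, and 0 a lower one, with a median of 0.19.

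IL1B, the gene of interleukin-1 beta, was not detected on any of the 4 Control arrays, which lay between 4.21 and 4.35. Its primed arrays stood at 6.37, 6.21, 5.90 and 5.75 in Pass6 and at 8.65, 7.61 and 7.62 in Pass8. All primed arrays of Pass8 were above those of Pass6, and IL1B rose at least 2.64-fold in Pass6 and at least 10.2-fold in Pass8. The passage difference in primed cells, where all arrays detected it, was 1.91 (adjusted p = 2.22e-06). Of the 12 tested genes of the IL-1 family, IL1B and IL18BP had a higher and IL1R1 and CASP1 a lower effect, against 1.42% and 1.28% of all genes. IL1R1, the signalling receptor of IL-1, rose by 1.51 ± 0.14 in Pass6 and 0.47 ± 0.15 in Pass8 (difference -1.04 ± 0.21, adjusted p = 0.00515). That call was lost without Control Pass6-B, where the difference was -0.83.

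CXCL8, the neutrophil chemokine interleukin-8, stood at 8.16 and 8.43 in Control cells of Pass6 and at 7.01 and 6.82 in those of Pass8. Its primed arrays lay at 13.95, 13.90, 13.81 and 13.64 and at 13.99, 14.02 and 13.98. The primed arrays of both passages were near the top of the scale, since the highest level of any gene was 14.2 on these arrays, and whether this limits a passage difference there was not tested. The rise was 46.1-fold in Pass6 and 135-fold in Pass8 (difference 1.55 ± 0.15, adjusted p = 2.37e-06). Its neighbour CXCL6, another neutrophil chemokine, rose 311-fold in Pass6 and at least 528-fold in Pass8, where it was not detected in Control cells. The fitted difference of 0.99 ± 0.17 (adjusted p = 0.00147) rests on that undetected level and is not a measured size. The CXCL6 call was lost without background correction and in the authors' normalised table, with 0.54 in each. Of 12 CXC chemokines these 2 passed, against 1.42% of all genes with a higher effect, with a list median of 0.42. Of 11 CC and CX3C chemokines 1 had a lower effect, against 1.28% of all genes. That was CCL7, a monocyte chemokine, with rises of 3.95 ± 0.12 in Pass6 and 2.91 ± 0.13 in Pass8 (difference -1.05 ± 0.18, adjusted p = 0.00157).

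Genes of the NF-kB and IL-17 signal itself are read against 1.42% of all genes with a higher and 1.28% with a lower effect. Of 22 genes of NF-kB subunits and feedback, NFKBIZ (0.68 ± 0.16, adjusted p = 0.0206) and TNFAIP3 (1.2 ± 0.29, adjusted p = 0.0229) had a higher effect in Pass8 and 0 a lower one, with a median of 0.11. NFKBIZ rose by 2.04 in Pass6 and 2.72 in Pass8. TNFAIP3 had effects of -0.87 in Pass6, a fall, and 0.33 in Pass8 (adjusted p = 0.33 in limma). Their passage differences were -0.50 and -0.98 in Control and 0.18 and 0.22 in primed cells. Both calls were lost without any 1 of the 4 Control arrays, with differences of 0.67 to 0.69 for NFKBIZ and 1.11 to 1.29 for TNFAIP3, and also without Pre_Ab_only Pass8-B for NFKBIZ (0.62) and Pre_only Pass8-B for TNFAIP3 (1.04). Of 19 receptors and adaptors of TNF and IL-17, CEBPB and TNFSF10 had a lower effect and 0 a higher one, with a median of -0.09. TNFSF10, the death ligand TRAIL and itself inducible by interferon, was not detected in Control cells of either passage. Its primed arrays stood at 7.02, 6.70, 6.29 and 6.37 in Pass6 and at 4.73, 5.13 and 5.37 in Pass8, so it rose at least 3.84-fold and at least 1.38-fold. Of the receptors themselves, TNFRSF1A had effects of 0.32 and 0.10 and TNFRSF1B of 1.14 and 1.25. IL17RA had effects of -0.39 and -0.19. None of these 3 differences passed the test.

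IL13RA2, which encodes the decoy receptor IL-13Ra2 that the antibody binds, rose in both passages. It stood at 7.29 and 7.10 in Control and at 11.71, 11.32, 11.27 and 11.30 in primed cells of Pass6, and at 7.96 and 7.91 and then at 11.15, 11.18 and 11.22 in Pass8. Primed arrays of Pass8 lay just under those of Pass6 and its Control arrays lay above them, an 18.5-fold rise against a 9.51-fold rise (difference -0.96 ± 0.17, adjusted p = 0.00211). The passage difference was 0.74 in Control (adjusted p = 0.00159) and -0.22 in primed cells (adjusted p = 0.21). The other 5 tested genes of the IL-13 and IL-4 receptor list, IL13RA1, IL4R, STAT6, CISH and SOCS2, did not pass, with differences of -0.15 to 0.24.

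TGFB3 and ELN, which act in matrix production, had higher effects in Pass8. TGFB3, a transforming growth factor that promotes matrix production, stood at 8.16 and 8.10 in Control cells of Pass6 and at 6.35 and 6.36 in those of Pass8. Its primed arrays stood at 6.20, 6.25, 6.23 and 6.10 and at 6.15, 6.08 and 6.30. Only the Control arrays of Pass6 stood apart. TGFB3 fell by 1.93 ± 0.13 in Pass6 and had an effect of -0.18 ± 0.13 in Pass8 (adjusted p = 0.40), a difference of 1.75 ± 0.18 (adjusted p = 3.24e-06). ELN, the gene of elastin, stood at 8.02 and 7.79 in Control and at 7.18, 7.31, 7.59 and 7.55 in primed cells of Pass6, and at 6.15 and 5.97 and then at 7.4, 7.43 and 7.07 in Pass8. It fell by 0.50 in Pass6 and rose by 1.24 in Pass8, and the primed arrays of the passages overlapped (difference 1.74 ± 0.21, adjusted p = 2.69e-05).

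Of 46 tested collagens and matrix genes, 6 had a higher effect in Pass8, against 1.42% of all genes, and 0 a lower one, with a median difference of 0.31. Among Control arrays, 16 of the 46 were lower in Pass8 and 0 higher, against 448 and 444 of all 12994 genes. Among primed arrays 6 were lower and 3 higher, against 552 and 542 of all genes. The count of 6 was 3 without Control Pass6-B or without Control Pass8-B, and ELN kept its call throughout. TNC, the wound matrix protein tenascin-C, had an effect of 0.09 in Pass6 and rose by 0.94 in Pass8 (difference 0.84 ± 0.16, adjusted p = 0.00426). Of 29 contractile and TGF-beta genes, 6 had a higher effect and 1, SMAD6, a lower one, against 1.42% and 1.28% of all genes, with a median of 0.22. This count was 3 without Control Pass6-A or without Control Pass8-A. MYH11, smooth muscle myosin, fell by 2.34 ± 0.11 in Pass6 and fell by 1.39 ± 0.12 in Pass8. Its Control arrays stood at 11.69 and 11.84 in Pass6 and at 10.11 and 10.03 in Pass8, and its primed arrays at 9.19, 9.41, 9.57 and 9.53 and at 8.59, 8.69 and 8.77. Priming lowered it in both passages from different starts (difference 0.96 ± 0.17, adjusted p = 0.0015). These genes include members of the smooth muscle list, whose mean level moved with passage as given above. That mean includes MYH11 and CNN1 themselves. In Control cells MYH11, CNN1, LMOD1, NOTCH3 and SYNPO2 had lower means in Pass8 than in Pass6. ACTA2 (13.88 in Pass6 and 13.91 in Pass8) and TAGLN (13.92 and 14.05) did not.

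Other genes among the 10 most positive differences had varied roles. ESM1, the secreted proteoglycan endocan, moved opposite ways: it fell by 1.31 ± 0.16 in Pass6 and rose by 0.76 ± 0.17 in Pass8 (difference 2.07 ± 0.23, adjusted p = 6.86e-06). Its Control arrays stood at 7.62 and 7.61 in Pass6 and 7.34 and 7.31 in Pass8, and its primed arrays at 6.61, 6.36, 6.01 and 6.23 and at 8.30, 7.77 and 8.18. The primed arrays of Pass6 were below, and those of Pass8 above, every Control array. COLEC12, a scavenger receptor with a collagen stem, rose by 0.74 ± 0.14 in Pass6 and 2.61 ± 0.15 in Pass8 (difference 1.88 ± 0.21). ALKAL1, a ligand of the receptor kinases ALK and LTK, fell by 2.66 ± 0.13 in Pass6 and fell by 0.59 ± 0.14 in Pass8 (difference 2.07 ± 0.19), with Control arrays at 10.73 and 10.69 in Pass6 and at 8.19 and 8.06 in Pass8. NRXN3, a synaptic adhesion gene, was detected on 2 of 4 primed arrays of Pass6 and 2 of 3 of Pass8, with primed means of 4.67 and 4.68. Its Control means were 6.92 in Pass6 and 5.27 in Pass8. It fell in both passages, but its fitted difference of 1.66 ± 0.20 is not a measured size. XYLT1, a xylosyltransferase that starts proteoglycan chains (1.61 ± 0.26), fell in both passages and less in Pass8. A second XYLT1 probe gave -0.12, opposite in sign. Its mean level of 4.60 is close to the lowest detected signals of the arrays (4.58 to 4.67), so whether it measures the gene here is not known. ALDH1A3, a retinaldehyde dehydrogenase, is not among these 10 and was chosen after its values were seen. It had effects of 0.49 in Pass6 and 2.01 in Pass8 and a passage difference of 2.00 in primed cells.

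The fetal globin genes responded strongly in both passages. HBG1 rose 32.1-fold in Pass6 and 10.7-fold in Pass8 (difference -1.59 ± 0.16, adjusted p = 2.65e-06). Its Control arrays stood at 6.56 and 6.61 in Pass6 and 7.31 and 7.53 in Pass8, and its primed arrays at 11.41, 11.80, 11.56 and 11.60 and at 10.84, 10.86 and 10.81, with no overlap between groups. HBG2 differed by -1.28 ± 0.17, but the genes are near-identical copies whose probes cannot be taken as separate. TDO2, the enzyme that opens the kynurenine pathway, rose at least 3.20-fold in Pass6 and was detected on 1 of 3 primed arrays of Pass8 and on no Control array. Its primed arrays stood at 6.76, 6.52, 6.09 and 5.97 in Pass6 and at 4.48, 4.79 and 4.54 in Pass8, and the passage difference in primed cells was -1.73. Since Control levels were undetected, no exact difference of effects is given. NR4A2, an immediate early nuclear receptor, rose by 3.22 ± 0.15 in Pass6 and by 1.51 ± 0.15 in Pass8 (difference -1.71 ± 0.21, adjusted p = 3.3e-05). Of 36 cell cycle genes, 1 (AURKA) had a higher effect, against 1.42% of all genes, and 0 a lower one, with a median of 0.06. AURKA fell in both passages, with effects of -2.08 in Pass6 and -0.96 in Pass8. Its passage difference was -1.02 in Control and 0.10 in primed cells. Of the list, 23 genes rose and 1 fell in Pass6, and 24 rose and 1 fell in Pass8. Among primed arrays, 10 of the 36 were higher in Pass8 and 0 lower, against 542 and 552 of all 12994 genes. Of 18 cholesterol synthesis genes 0 passed in limma, with a median of 0.00. Of 22 genes of the unfolded protein and integrated stress response, 5 had a higher effect, against 1.42% of all genes, and 0 a lower one, with a median of 0.34.

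Neighbours on the genome were counted among called genes only, with no share for neighbouring genes at large. Of 347 called genes that could be placed in the RefSeq table, 24 pairs had at most 1 protein-coding gene between them, and 20 of these pairs differed in the same direction. They include ADH1A with ADH1B, AKR1C2 and AKR1C4 with AKR1C3, IFIT2 and IFIT1 with IFIT3, IFI44L with IFI44, HBG1 with HBG2 and CXCL8 with CXCL6, some of them the near-identical copies named above.

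The same difference was then measured on the 12 arrays with IL-13, which shared no array with the calls above but shared the passages, the beadchips and the normalisation. There it passed for 217 genes (1.67%), 126 with a higher and 91 with a lower effect in Pass8. Of the 351 genes, 323 had the same sign with IL-13 (92.0%, against 60.8% of all genes) and 28 the opposite one. The 92 genes called in both were 26.2% of the 351 and 42.4% of the 217, and 0 of them changed sign. The 2 sets of differences had a Pearson correlation of 0.86 over the 351 genes and 0.46 over all genes. Genes with a lower effect in Pass8 had a median of -0.90 without IL-13 and -0.47 with it, and those with a higher effect 0.90 and 0.64. The count of 217 depends on single arrays: it was 1049 without IL13 Pass6-B, 54 without IL13 Pass8-A, 64 without IL13 Pass8-B and 143 without Pre_Ab_IL13 Pass8-A.

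**Figure D5:**
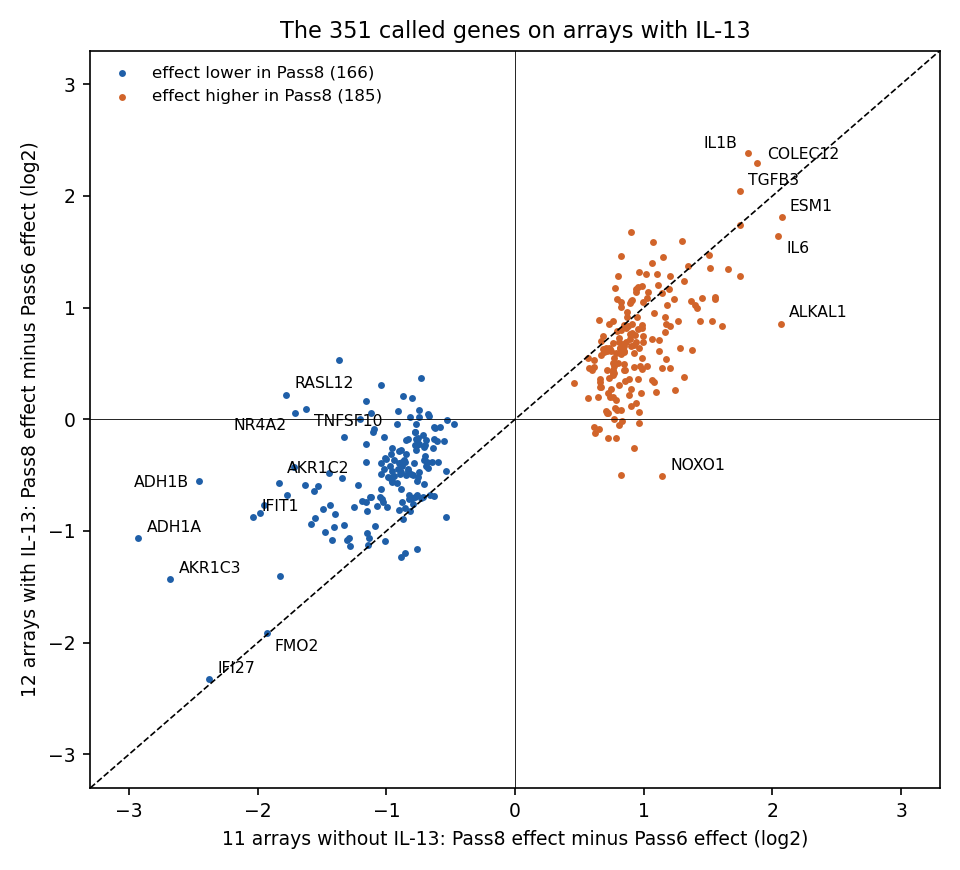
Difference of priming effects, Pass8 minus Pass6 in log2, on the 11 arrays without IL-13 (x axis) and the 12 arrays with it (y axis) for the 351 called genes, with equal values on the dashed line. IFI27 (-2.38 and -2.33) and FMO2 (-1.93 and -1.91) lie on the line, and ADH1A (-2.93 and -1.06) lies nearer to 0 with IL-13.

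IFI27 kept its size with IL-13. It stood at 6.06 and 6.70 on the IL13 arrays and at 9.98, 9.66, 9.72 and 9.30 on the primed arrays of Pass6, and at 6.48 and 6.58 and then at 7.55, 7.56, 7.37 and 7.48 in Pass8 (difference -2.33 ± 0.24, adjusted p = 3.15e-05). Primed arrays of the passages were again separate and the others overlapped. FMO2 differed by -1.91 ± 0.30, IL1B, undetected without priming, by a fitted 2.39 ± 0.31, TGFB3 by 2.04 ± 0.20, COLEC12 by 2.29 ± 0.22 and IL6 by 1.64 ± 0.25, all past the threshold. All 17 interferon-stimulated genes with a lower effect were negative with IL-13, between -2.33 and -0.39, and 6 of them passed. ADH1A, in contrast, stood at 7.21 and 8.11 on the IL13 arrays of Pass6, its primed arrays at 9.99, 10.12, 10.24 and 10.33, and in Pass8 at 8.32 and 8.55 and then at 9.71, 9.64, 10.05 and 10.14. The primed arrays of the passages overlapped here, and the difference was -1.06 ± 0.27 (adjusted p = 0.0460).

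Whether IL-13 altered the passage dependence was tested in 1 fit over all 23 arrays, an addition made after the data were seen. It passed for 5 of 12994 genes, with 774 at an unadjusted p under 0.05. The fitted difference moved towards 0 for ADH1A (by 1.86), ADH1B (by 1.90) and AKR1C2 (by 1.26), and past 0 for RASL12, a Ras-like protein gene (from -1.78 to 0.22), and for NOXO1, an organiser of an NADPH oxidase (from 1.14 to -0.51). Adjusted p was 0.0128 for RASL12 and 0.0492 for the other 4, and 0 genes passed after median scaling.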

How the data were processed

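RNA from CCL-75 cells (300 ng) was biotin-labelled and hybridised to Illumina bead arrays. The deposited intensity per probe, not normalised, and the detection p-value came from GenomeStudio 2011.1, per the submitters' processing notes and the file headers. The count of beads per probe is per the file headers. A table of log2 values normalised by the authors served as an alternative only, with 31390 probes and a correlation of at least 0.997 with the log2 intensity of each array, and its background handling and centring stay unknown. All 23 arrays were corrected with negative-control estimates from the detection p-values and quantile normalised (neqc, offset 16, limma 3.58.1 in R 4.3.3). Of 47323 probes, 14 lacked a value somewhere and were dropped. Detection (p under 0.05) in 3 or more arrays was required, which 24096 probes met, and 6555 of these had no single gene symbol. The probe with the highest mean stood for a gene. Effects are differences of means on the log2 scale from a limma fit of 4 group means with a trended variance, with 7 residual degrees of freedom on the 11 arrays and 8 on the 12 arrays with IL-13, and Benjamini-Hochberg adjustment over 12994 genes at 0.05. A fold of a gene undetected in Control cells is a lower bound, against the higher of its own mean and the lowest detected signal of each array. On simulated data for the passage comparison with 12994 genes, 50 of 67 differences of 1 (log2) were recovered, 64 of 66 of 2 and 2 of 67 of 0.5. There were 8 false calls. The simulated noise was independent between arrays, with no term for beadchip or culture. The number of arrays limits the precision.

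Genes named are the 10 most positive and the 10 most negative called differences, up to 2 called members of each of 33 lists by size, and ADH1A, AKR1C3, IFI27, IFIT1, IL1B and IL13RA2. Genes named beyond these, such as other called members of a list, were chosen after their values were seen. The comparison, the members and the lists were chosen with earlier results of these data known. One Pre_only array, Pass8 experiment A, was not analysed here.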

Additional observations from a re-analysis of the deposited data

Results flagged for a closer look

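The effect of TNF and IL-17 differed between Pass6 and Pass8 by the test of the difference itself for 351 genes, and for each of the 57 genes named by the rule (limma, adjusted p under 0.05, log2 differences of Pass8 minus Pass6 in brackets). Enzymes with a lower effect in Pass8 were ADH1A (-2.93), AKR1C3 (-2.68), ADH1B (-2.45), AKR1C4 (-1.98), FMO2 (-1.93), AKR1C2 (-1.84), TDO2 (-1.77), PTGES (-1.16), CA12 (-0.92) and NQO1 (-0.89). Interferon-related and death ligand genes with a lower effect were IFI27 (-2.38), IFIT1 (-2.04), IFIT2 (-1.95), IFIT3 (-1.83), TNFSF10 (-1.62), IFIH1 (-1.03) and DHX58 (-0.89). The globins, receptors, regulators and other genes with a lower effect were NR4A2 (-1.71), HBG1 (-1.59), HBG2 (-1.28), CDKN1C (-1.07), CCL7 (-1.05), IL1R1 (-1.04), MUC1 (-0.97), IL13RA2 (-0.96), TWIST1 (-0.78), PDGFRA (-0.71), CTSL (-0.70), CEBPB (-0.64) and CD68 (-0.54). Secreted factors and their regulators with a higher effect in Pass8 were ESM1 (2.07), ALKAL1 (2.07), IL6 (2.05), IL1B (1.81), IL11 (1.75), TGFB3 (1.75), CXCL8 (1.55), TNFAIP3 (1.2), HBEGF (1.06), CXCL6 (0.99), INHBE (0.90), IGFBP3 (0.86), BDNF (0.71) and NFKBIZ (0.68). Matrix, contractile and other genes with a higher effect were COLEC12 (1.88), ELN (1.74), NRXN3 (1.66), XYLT1 (1.61), AURKA (1.12), SLC7A5 (1.06), CNN1 (0.99), MMP3 (0.96), MYH11 (0.96), PTGIS (0.93), SLC2A1 (0.90), TNC (0.84) and ATF3 (0.83). ADH1B, TDO2, TNFSF10, PTGES, IL1B, CXCL6 and INHBE were undetected in Control cells of at least 1 passage, so their values are fitted and are not measured sizes. NRXN3 was detected on only 2 primed arrays of each passage, and the same holds for its value. IFIT1, CDKN1C and DHX58 were detected on 1 of 2 Control arrays of Pass6, so their differences rest in part on levels near the detection limit.

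Some of these calls were lost when 1 array was left out, with no change of sign. ATF3 (0.75 to 0.89 over the 11 arrays left out in turn) and TWIST1 (-0.84 to -0.70) lost it without any of the 4 Control arrays. BDNF (0.63 to 0.79), CA12 (-1.06 to -0.82), NFKBIZ (0.62 to 0.73), PTGIS (0.79 to 1.00) and TNFAIP3 (1.04 to 1.40) lost it without any of the 4 and also without 1 or 2 primed arrays of Pass8, and CD68 (-0.58 to -0.47) without 8 of the 11 arrays. Control Pass6-A or Pass8-A decided the calls of PDGFRA (-0.78 to -0.64), CTSL (-0.76 to -0.65), CNN1 (0.86 to 1.11) and IFIH1 (-1.23 to -0.82), Pass6-A or Pass8-B that of CDKN1C (-1.22 to -0.98), Pass6-B or Pass8-B that of IGFBP3 (0.71 to 1.01) and Pass6-B or Pass8-A that of PTGES (-1.40 to -0.92). IL1R1 (-1.25 to -0.83) lost it without Pass6-B, and CEBPB (-0.69 to -0.56), DHX58 (-1.02 to -0.76) and INHBE (0.68 to 1.11) without 3, 4 and 4 of the arrays.

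Within the 4 primed arrays of Pass6, 1 array stood far from the other 3 for 7 of the 57 named genes. Pre_only Pass6-A was low for IFI27 (9.51), NFKBIZ (8.76) and PTGIS (4.99) and high for IL13RA2 (11.71). Pre_Ab_only Pass6-A was high for FMO2 (9.68) and low for CCL7 (8.81), and Pre_Ab_only Pass6-B was high for INHBE (4.81). Chance flags about 1 in 20 groups in this way, and whether 7 exceeds it was not tested, since genes on the same arrays are not independent.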

How the results depend on the processing

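Over 26 alternatives for each of 57 named genes (1482 values), 1306 kept the side of the threshold, 176 lost the call and 0 reversed, and 28 genes kept the call throughout. The 351 calls for passage dependence became 123 with median scaling, 125 with primed arrays without antibody only, 163 on means of A and B, 539 with array weights, 182 at an adjusted p under 0.01 and 119 tested against a 1.2-fold change. Leaving out 1 array gave 190 to 508. The 3433 calls in Pass6 became 1987 with median scaling and 1518 against 1.2-fold (2337 to 3578 leaving out 1 array). The 2363 in Pass8 became 1312 with median scaling, 1144 without antibody, 1512 at 0.01 and 922 against 1.2-fold (1431 to 2744). The 217 with IL-13 became 17 with median scaling, 534 in a fit of all 23 arrays, 80 without and 86 with antibody only, 26 on means of A and B, 128 with array weights, 73 at 0.01 and 52 against 1.2-fold (54 to 1049). The 892 of Control cells became 209 with median scaling, 342 on means, 1377 with array weights, 385 at 0.01 and 181 against 1.2-fold (324 to 1293). The 1094 of primed cells became 661 with median scaling, 100 without antibody, 638 on means, 401 at 0.01 and 103 against 1.2-fold (470 to 1102). The 5 genes of the IL-13 comparison became 0 with median scaling, 2 without a detection filter, 3 on the mean over probes, 3 with array weights and 0 both at 0.01 and against 1.2-fold. Median scaling moved the share of higher calls from 52.7% to 69.9% for passage dependence, from 48.8% to 68.1% in Pass8, from 49.8% to 38.8% in Control and from 49.5% to 84.9% in primed cells. It moved the median of all genes to 0.10 for passage dependence, 0.15 for primed cells, -0.10 for the difference with IL-13 and -0.22 for the IL-13 comparison. For passage dependence under it, the list of interferon-stimulated genes had a median of -0.33 and the collagens and matrix genes 0.46. The cause of these changes was not tested, except that the 0.01 and 1.2-fold settings are stricter and the means use fewer values. The letters A and B did not pair the arrays: 2 of 25 pairs correlated above 0.1 (-0.26 to 0.34), and the fit with a replicate block called 273 genes for passage dependence, 3181 in Pass6, 2080 in Pass8, 171 with IL-13, 690 in Control and 774 in primed cells. The comparisons in Control and primed cells, the comparison with and without IL-13 and the list counts were added after the data were seen. Passage, beadchip and culture are 1 variable here, and genes undetected in Control cells carry only a bound on their fold.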

Other observations

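The remaining lists are read against 1.42% of all genes with a higher and 1.28% with a lower effect in Pass8. Of 25 matrix proteases and inhibitors, MMP3, a stromelysin, had a higher effect in Pass8 (rises of 11.8-fold in Pass6 and 22.8-fold in Pass8) and CTSL a lower one, with a median difference of 0.03. Of 16 complement and acute phase genes and 10 metallothioneins and zinc transporters, 0 passed in limma, with medians of 0.07 and -0.01. Of 13 prostaglandin genes, PTGIS had a higher effect and PTGES a lower one. PTGIS fell in both passages, with effects of -1.69 in Pass6 and -0.77 in Pass8. Of 10 kynurenine genes, SLC7A5 had a higher effect and TDO2 and QPRT a lower one. SLC7A5 had effects of -1.18 in Pass6 and -0.12 in Pass8 (adjusted p = 0.63 in limma), so its higher effect is not a rise. Of 24 senescence and p53 genes, 3 had a higher effect and 1 a lower one (median -0.10). The counts were 2 and 3 of 26 glycolysis and hypoxia genes (median -0.05) and 4 and 1 of 19 immediate early genes (median 0.20). For 23 growth factors they were 2 and 0 (median 0.08).

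The 10 genes that passed in both passages with opposite signs, singled out after their values were seen, were ELN, ESM1, IL11, CDH2, KCNG1, SERPINA3, ANKRD35, DEPP1, FOXQ1 and PHYH. CDH2, N-cadherin, rose by 0.62 in Pass8, and SERPINA3, an acute phase protease inhibitor, by 0.49, with differences of 1.37 and 1.30. FOXQ1, a forkhead factor, and DEPP1 had effects of -0.69 and -0.51 in Pass8, with differences of -1.12 and -1.10.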
